A study of Mus musculus with 8 samples.

Results

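Sugar-derived carbon reaches the mitochondrial oxidation machinery of a cell through a short series of gates, and 10 genes that encode those gates were examined in hematopoietic stem cells (HSCs) of mice labelled Mitol knockout and of control mice. They are the glucose transporters Slc2a1 and Slc2a3, the lactate and pyruvate transporters Slc16a1 and Slc16a3, the mitochondrial pyruvate carrier subunits Mpc1 and Mpc2, the pyruvate dehydrogenase subunit Pdha1, and the pyruvate dehydrogenase kinases Pdk1, Pdk2 and Pdk3. The genes are defined by their symbols, and all 10 were found among the 22065 named genes of the count table. RNA-seq was done on 8 libraries, 4 of MitolΔ/Δ HSCs (labelled Mitol knockout) and 4 of control HSCs, each made from 100 cells sorted from the bone marrow of C57BL/6 mice aged 8 to 10 weeks. The values are reads counted on each gene.

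MitolΔ/Δ mice carried floxed Mitol alleles and MX1-cre, whose promoter responds to interferon, and controls were littermates with the floxed alleles and no Cre. Both groups had received Poly:IC, which induces the Cre, and cells were taken 1 week later, so the MitolΔ/Δ libraries differ from controls in Cre as well as in Mitol and these cannot be told apart. MX1-cre acts in many cell types of the marrow besides HSCs. The labels do not say whether the libraries came from separate mice, and p-values then measure the spread between these samples, which may be technical. The targeted gene Marchf5, which encodes MITOL, had 274 ± 31.8 normalized counts in MitolΔ/Δ and 302 ± 29.9 in control libraries (SD, n = 4 each; edgeR quasi-likelihood test with Benjamini-Hochberg adjustment over all genes, adjusted p = 0.498), so its total count does not separate the labels. Counts per gene do not show which exons the reads came from. Counts on named genes came to between 9212488 and 12398138 per MitolΔ/Δ library and between 7214935 and 9906457 per control library. The 7 marker genes of HSCs looked at were detected in every library, and 2 of them (Kit and Hlf) were lower in MitolΔ/Δ HSCs at an adjusted p under 0.05, with summed normalized counts of the 7 at 18739.5 to 22155 in MitolΔ/Δ and 26737 to 32006 in control libraries. Kit, which encodes CD117 of the sorting gate, was at 7057 ± 1123 against 11706 ± 1511, and Hlf at 5573 ± 646 against 9505 ± 1078. These 2 have the highest counts of the 7 and weigh most in that sum. Slamf1, which encodes CD150 of the gate, and Ly6a, which encodes Sca-1, were higher, at 525 ± 109 against 353 ± 51.6 and 924 ± 360.0 against 541 ± 70.7 (edgeR adjusted p = 0.0501 and 0.0605, DESeq2 adjusted p = 0.0117 and 0.0107). Procr, which encodes EPCR of the gate, was lower, at 448 ± 59.4 against 561 ± 116 (edgeR adjusted p = 0.179, DESeq2 adjusted p = 0.187). Mecom and Fgd5 had log2 fold changes of -0.13 and -0.10 (edgeR adjusted p = 0.389 and 0.467). MitolΔ/Δ library 3 stood apart for red-cell genes, whose sum over 7 genes was 4754 there, 968 to 1576 in the other MitolΔ/Δ libraries and 370 to 794 in controls. Because each library is a bulk sample, a gene carried by fewer cells and a gene with less RNA per cell cannot be told apart.

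As background, glucose enters blood cells through facilitative transporters of the GLUT family, is phosphorylated by hexokinases and is broken down to pyruvate. Pyruvate either becomes lactate, which leaves or enters the cell with a proton through monocarboxylate transporters, or crosses the inner mitochondrial membrane through a carrier built of MPC1 and MPC2. Inside, the pyruvate dehydrogenase complex turns it into acetyl-CoA, and PDK kinases switch that complex off by phosphorylating its E1α subunit, while PDP phosphatases switch it on. Quiescent HSCs are known for a reliance on glycolysis, in which hypoxia-inducible factors (HIF) and PDK kinases have been given a part.

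Among the 10 genes, Slc16a1 was the one that rose in MitolΔ/Δ HSCs at an adjusted p under 0.05, and 0 fell (edgeR). Of all tested genes, 4.68% rose and 3.75% fell at that threshold. Taken alone, unadjusted p-values under 0.05 were reached by 1 gene that was higher (Slc16a1) and 1 that was lower (Pdk2). The share of all tested genes at that unadjusted level is not given here. DESeq2 with adjustment gave the same pair, where 2315 of all 16488 genes it tested passed in either direction. The edgeR count of 1 in 10 is close to the 8.43% of all 16444 tested genes past its adjusted threshold in either direction. The group as a whole therefore does not stand out by its edgeR calls. The groups did not overlap for 2 of the 10 genes, Mpc2 and Pdk2, where 15.4% of all tested genes had separate groups. The median log2 fold change over the 10 genes was 0.16, with 8 values above and 2 below 0, and that over all tested genes was -0.02. All 10 passed the filter on low counts.

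Stretches upstream of RefSeq start sites are shown for the genes with the highest (Slc16a1) and the lowest (Pdk2) log2 fold change of the 10. A stretch is also shown for Slc16a3, the family member of Slc16a1 that did not pass the test. Capitals mark CACGTG, a palindrome known as an E-box, or ACGTG, a form of the core of the sequence that HIF binds.
Slc16a1: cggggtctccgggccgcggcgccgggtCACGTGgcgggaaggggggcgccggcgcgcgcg
Pdk2: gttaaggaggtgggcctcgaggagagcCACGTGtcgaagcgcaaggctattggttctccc
Slc16a3: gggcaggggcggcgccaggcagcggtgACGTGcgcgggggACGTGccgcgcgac
They lie at chr3:104545753-104545812 (plus strand), chr11:94932291-94932350 (minus strand) and chr11:120839839-120839892 (plus strand) of GRCm39. The sequences come from RefSeq promoters (GRCm38.p6 table, placed on GRCm39 by exact match). The capitals begin 200 bases before the RefSeq start site in Slc16a1, 126 bases before it in Pdk2, and 27 and 14 bases before it in Slc16a3. That site lies 169, 45 and 1047 bases after the GENCODE gene start in Slc16a1, Pdk2 and Slc16a3. The Slc16a3 stretch is therefore inside the gene interval given below. Both strands were searched in windows of 250 bases before to 50 bases after the start for 9 of the 10 genes, and Slc2a3 had no entry. ACGTG was found for Slc2a1, Slc16a1, Slc16a3, Pdk2 and Pdk3, and CACGTG, which contains ACGTG on both strands, for Slc16a1 and Pdk2. Of all 32851 promoters in that table, 19.6% hold ACGTG and 7.15% hold CACGTG, so neither is rare. These shares are per promoter, while a gene was counted if any of its promoters (12 for the 9 genes) held the motif. The third motif searched, GCGTG, is the other form of the core that HIF binds and is in 32.4% of all promoters. Of the 10 genes it was found for Slc2a1, Slc16a1, Mpc1, Mpc2, Pdha1, Pdk1 and Pdk3. No binding was measured, and the matches are letters only.

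Slc16a1 (chr3:104545811-104565780, GRCm39) encodes MCT1, a high-affinity carrier of lactate, pyruvate and ketone bodies. Its normalized counts were 795, 1052, 724 and 500.4 in MitolΔ/Δ libraries 1 to 4 and 549.9, 402, 332 and 448 in control libraries 1 to 4. Of the 4 MitolΔ/Δ libraries 3 lay above every control library, while MitolΔ/Δ library 4 lay below control library 1. The means were 768 ± 227 and 433 ± 91.5 (SD, n = 4 each), a 1.75-fold rise, or 0.81 on the log2 scale (standard error 0.20, 95% confidence interval 0.37 to 1.25, edgeR adjusted p = 0.0332). Every other normalization, filter and tool tried on all 8 libraries kept the call, with adjusted p-values of 0.00244 to 0.0405. The exact permutation test on the 8 values alone gave p = 0.0571 (2-sided, smallest possible 0.0286). The call was lost when MitolΔ/Δ library 1, 2 or 3 was left out (adjusted p = 0.0770, 0.0884 and 0.0655) and when control library 2, 3 or 4 was (0.0923, 0.0834 and 0.0776), with log2 fold changes of 0.63 to 0.99 over all 8 omissions.

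**Figure D1:**
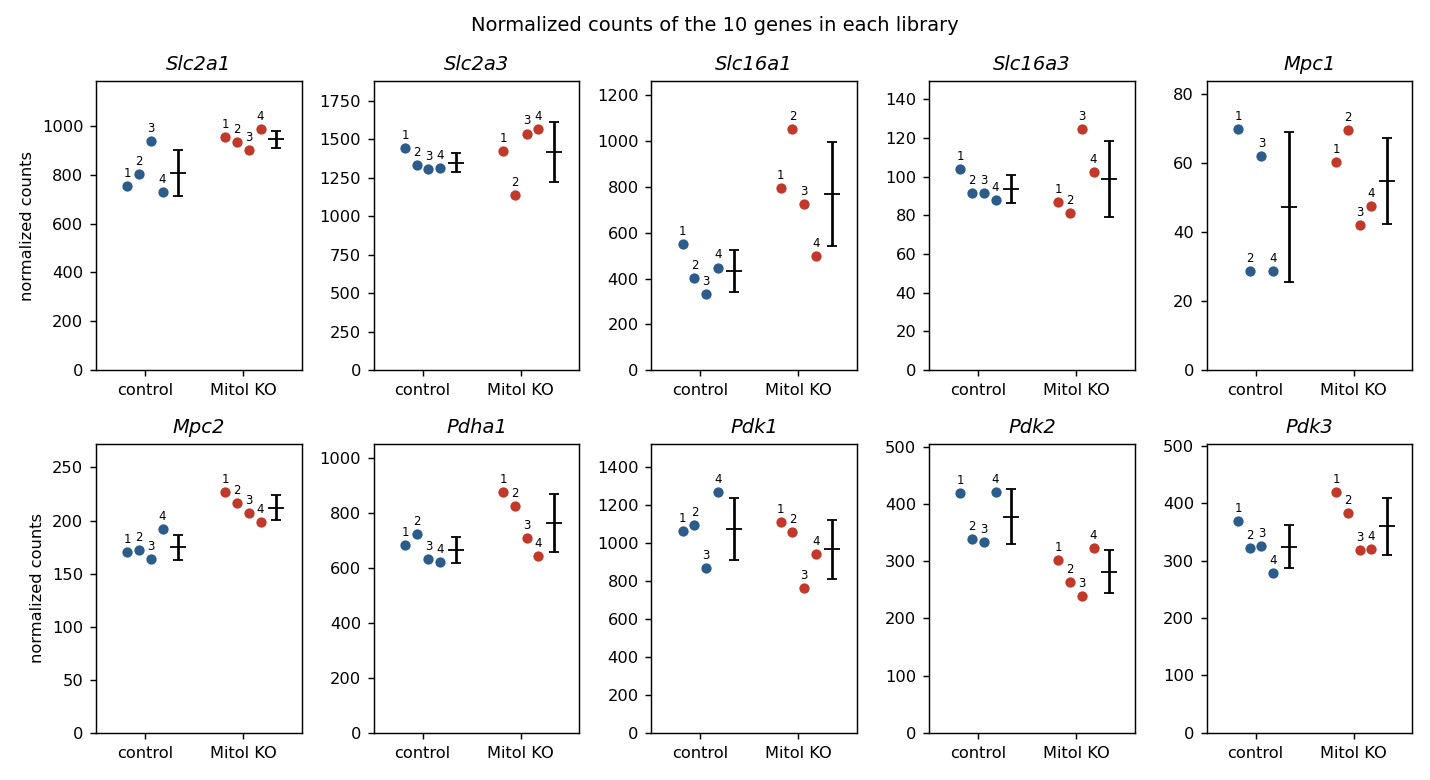
Normalized counts (y axis, linear, from 0) of the 10 genes, 1 panel per gene, with a point for each of 4 MitolΔ/Δ and 4 control libraries and bars for the mean and SD. Slc16a1 runs from 500.4 to 1052 in MitolΔ/Δ and from 332 to 549.9 in control libraries, Pdk2 and Mpc2 have separate groups, and the points of the other 7 genes overlap between groups.

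Slc16a3 (chr11:120838846-120851694) encodes MCT4, the low-affinity carrier through which strongly glycolytic cells export lactate. It was a low-count gene here, with 86.9, 81.1, 124 and 103 normalized counts in MitolΔ/Δ libraries 1 to 4 and 104, 91.5, 91.4 and 88.0 in controls. The groups overlapped, and the log2 fold change was 0.06 (95% confidence interval -0.36 to 0.48, edgeR adjusted p = 0.877). It was -0.06 without MitolΔ/Δ library 3. The ratio of Slc16a1 to Slc16a3 ranged from 4.88 to 12.97 in MitolΔ/Δ and from 3.63 to 5.28 in control libraries (log2 difference 0.74, exact permutation test, p = 0.0857, 0.257 adjusted over 6 ratios), so a difference between the 2 transporters in their response was not shown.

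The other genes of monocarboxylate transport were Slc16a7, Slc16a8 and the chaperones Bsg and Emb, and 1 of the 4 rose and 0 fell. Bsg encodes basigin, the membrane protein that brings MCT1 and MCT4 to the cell surface. It had 1715, 1621, 1686 and 1566 normalized counts in MitolΔ/Δ and 1410, 1212, 1195 and 1138 in control libraries, with every MitolΔ/Δ library above every control. The rise was 0.39 on the log2 scale (standard error 0.088, edgeR adjusted p = 0.0220). Leaving out 1 library ended the call in 6 of 8 cases, with adjusted p from 0.0513 without MitolΔ/Δ library 2 to 0.0721 without control library 2. It held without MitolΔ/Δ library 4 and without control library 1. Emb, the chaperone that can stand in for basigin, was at 632 ± 65.0 and 461 ± 103 (log2 fold change 0.44, edgeR adjusted p = 0.0942, DESeq2 adjusted p = 0.0478).

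Slc2a1 (chr4:118965908-118996365) and Slc2a3 (chr6:122704768-122778599) encode GLUT1 and GLUT3, the basal and the high-affinity glucose transporter of most blood cells. Slc2a1 had 956, 932, 903 and 986 normalized counts in MitolΔ/Δ and 756, 804, 937 and 728 in control libraries. All MitolΔ/Δ libraries lay above 3 of the 4 controls, and control library 3 lay among them. The log2 fold change of 0.21 (95% confidence interval -0.003 to 0.42) did not pass the test (edgeR adjusted p = 0.196). Slc2a3 was at 1422, 1138, 1537 and 1565 in MitolΔ/Δ and 1441, 1330.1, 1304 and 1316 in control libraries. Its log2 fold change was 0.05 (95% confidence interval -0.18 to 0.29, adjusted p = 0.791), and it turned to -0.01 under upper quartile normalization. The ratio of Slc2a1 to Slc2a3 did not separate the groups (0.587 to 0.819 in MitolΔ/Δ, 0.524 to 0.719 in controls, exact permutation test, p = 0.314, 0.377 adjusted over 6 ratios).

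Of 11 other glucose transporters, 9 were in the table and 6 were tested, and 0 passed in either direction in edgeR, DESeq2 and limma-voom (1 at an unadjusted p under 0.05, Slc2a9, at 243 ± 14.5 against 299 ± 27.7). Of 5 tested genes that trap glucose or control its transporters, 1 rose, Hk2, the hexokinase known to be induced in growing cells. Its normalized counts were 2206, 1513, 2742 and 2054 in MitolΔ/Δ and 1149, 1340, 1100 and 660 in control libraries, with no overlap, and the log2 fold change was 0.99 (standard error 0.21, edgeR adjusted p = 0.0183). It kept its call whichever library was left out. Txnip, whose product draws GLUT1 off the surface and whose RNA is known to follow intracellular glucose, was at 3869 ± 1301 in MitolΔ/Δ and 6458 ± 1440 in control HSCs. The log2 fold change of -0.76 missed the threshold in edgeR (adjusted p = 0.0545) and passed it in DESeq2 (adjusted p = 0.00974).

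**Figure D2:**
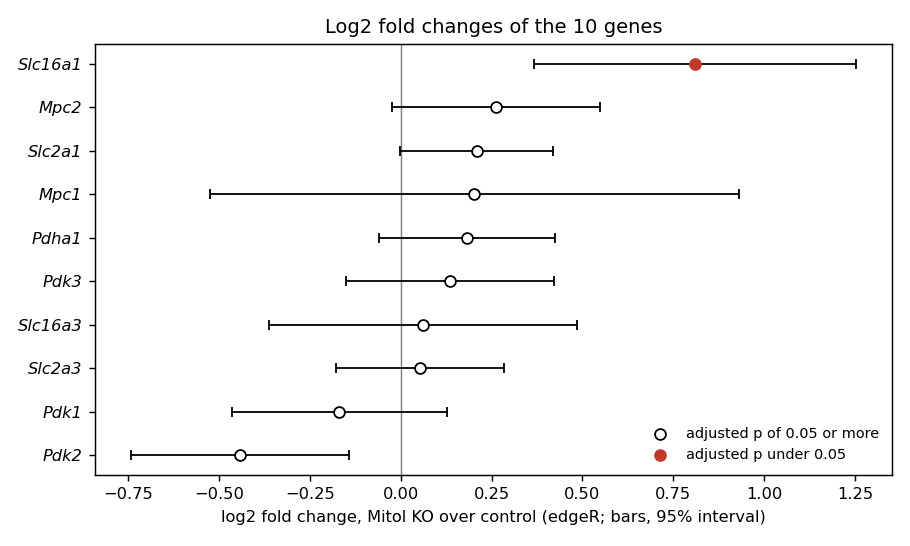
Log2 fold change of MitolΔ/Δ over control HSCs (x axis, edgeR) of the 10 genes, with points for the estimate (filled for an adjusted p under 0.05) and bars for the 95% confidence interval. The intervals of Slc16a1 (0.37 to 1.25) and Pdk2 (-0.74 to -0.14) do not include 0, and those of the other 8 genes do.

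The mitochondrial pyruvate carrier is made of MPC1 and MPC2, and each needs the other. Mpc2 (chr1:165287125-165308785) had 227, 216, 207 and 199 normalized counts in MitolΔ/Δ and 170.1, 172, 164 and 192 in control libraries. Every MitolΔ/Δ value was above every control value, and the exact permutation test gave p = 0.0286, the smallest 4 against 4 can give. In the fit over all genes the log2 fold change of 0.26 (95% confidence interval -0.02 to 0.55) did not pass the threshold (edgeR adjusted p = 0.229).

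Mpc1 (chr17:8501736-8516498) had few reads, with 60.3, 69.6, 42.1 and 47.6 normalized counts in MitolΔ/Δ and 69.9, 28.7, 62.2 and 28.7 in control libraries. The control values fall into a high and a low pair, all MitolΔ/Δ values lie between their extremes, and the interval of the log2 fold change (0.20, -0.53 to 0.93, adjusted p = 0.747) leaves room for a change of either sign. A processed pseudogene, Mpc1-ps, is counted separately in the table, and reads may be split between them. The ratio of Mpc1 to Mpc2 differed by 0.03 on the log2 scale (exact permutation test, p = 0.943, 0.943 adjusted over 6 ratios).

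Pdha1 (chrX:158904237-158921426) encodes the E1α subunit that the PDK kinases phosphorylate. Its normalized counts were 876, 825, 709 and 642 in MitolΔ/Δ and 682, 721, 632 and 621 in control libraries, so that MitolΔ/Δ libraries 1 and 2 lay above all controls and libraries 3 and 4 among them. The log2 fold change was 0.18 (95% confidence interval -0.06 to 0.42, edgeR adjusted p = 0.323). Of the rest of the complex and its control, all 11 genes in the table were tested, and 0 passed in edgeR, DESeq2 or limma-voom (1 at an unadjusted p under 0.05), with a median log2 fold change of 0.01. Pdhb, the partner of Pdha1 in E1, was at 497 ± 42.1 and 435 ± 44.1 in MitolΔ/Δ and control HSCs (adjusted p = 0.349), and Dlat, the E2 subunit, at 383 ± 42.0 and 324 ± 54.0 (adjusted p = 0.334). The phosphatase gene Pdp1 was at 222 ± 40.3 and 233 ± 38.5 (adjusted p = 0.773).

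Pdk2 (chr11:94914929-94932242) encodes a widely expressed PDK kinase, and its 3′ end overlaps the opposite-strand gene Samd14, whose reads could not be told apart if strand was not used in counting. Its normalized counts were 302, 263, 239 and 324 in MitolΔ/Δ and 419, 338, 333 and 421 in control libraries. All MitolΔ/Δ values lay below all control values, though the highest MitolΔ/Δ value and the lowest control value, 324 and 333, are close (exact permutation test, p = 0.0286). The log2 fold change was -0.44 (standard error 0.14, 95% confidence interval -0.74 to -0.14), and the adjusted p of 0.0666 in edgeR missed the threshold, which DESeq2 passed (adjusted p = 0.0440). Over the normalizations, filters and tools tried on all 8 libraries, the adjusted p ran from 0.0440 to 0.0982, so the call depends on the setting while the direction did not change in any of them. Without MitolΔ/Δ library 4 the adjusted p was 0.0379, and without any other library it was between 0.0785 and 0.182.

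Pdk1 (chr2:71703488-71734202), the kinase gene best known as a HIF target, had 1111, 1056, 761 and 939.5 normalized counts in MitolΔ/Δ and 1062, 1092, 867 and 1267 in control libraries. Both groups had their lowest value in library 3 and overlapped, with a log2 fold change of -0.17 (95% confidence interval -0.46 to 0.13, edgeR adjusted p = 0.461). Pdk3 (chrX:92789513-92876389) had 419.5, 382, 319 and 319.5 in MitolΔ/Δ and 369, 322, 326 and 278 in control libraries, which also overlapped (log2 fold change 0.14, 95% confidence interval -0.15 to 0.42, adjusted p = 0.550). Pdk4, the family member known to be induced on fasting, was near the bottom of the range, at 23.4 ± 13.2 and 45.7 ± 18.5 normalized counts (log2 fold change -0.99, adjusted p = 0.232, and -0.62 without MitolΔ/Δ library 3, which had 3.66).

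Divided by exon length, the kinase RNAs can be set against each other as shares of the 4 PDK genes. Pdk1 made up 57.0 ± 1.24% in MitolΔ/Δ and 55.9 ± 2.81% in control HSCs, the largest share in all 8 libraries. The share of Pdk2 ranged from 14.9 to 19.7% in MitolΔ/Δ and from 18.3 to 22.1% in control libraries, and that of Pdk3 from 20.3 to 25.2% and from 13.8 to 21.1%. In mean shares Pdk3 stood above Pdk2 in MitolΔ/Δ HSCs and below it in controls, and the ranges of both genes overlapped between the groups. Neither the ratio of Pdk1 to Pdk2 (log2 difference 0.27, exact permutation test, p = 0.143) nor that of Pdk1 to Pdk3 (-0.30, p = 0.171) separated the groups. The sum of Pdk1, Pdk2 and Pdk3 was 1.86 to 2.46 times Pdha1 in MitolΔ/Δ and 2.41 to 3.16 times in control libraries, a log2 difference of -0.34 (exact permutation test, p = 0.0857). Each of these 3 had an adjusted p of 0.257 over the 6 ratios.

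**Figure D3:**
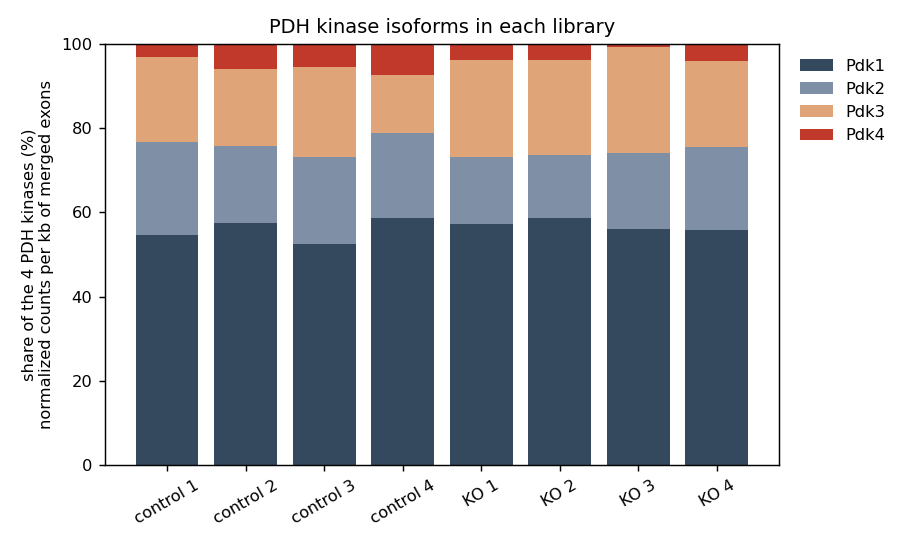
Share of each of the 4 PDK genes in their summed normalized counts per kilobase of exon (y axis, percent) as stacked bars that add to 100, 1 for each of the 4 control and 4 MitolΔ/Δ (KO) libraries. Pdk1 is the largest share in every library, and the share of Pdk2 runs from 14.9 to 19.7% in MitolΔ/Δ and from 18.3 to 22.1% in control libraries.

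Levels of the 10 genes against each other were taken as normalized counts per kilobase of merged exons. In control HSCs the order ran from Slc2a3 (180 ± 8.46) and Slc2a1 (172 ± 19.8) through Pdha1 (124 ± 8.68) and Pdk1 (122 ± 18.6) to Slc16a1 (81.9 ± 17.3). Slc2a3 and Slc2a1, and likewise Pdha1 and Pdk1, differed by less than their spread. Below them came Pdk2 (44.0 ± 5.67) and Pdk3 (39.3 ± 4.51), whose spreads also meet, then Mpc2 (21.7 ± 1.52), Mpc1 (13.6 ± 6.23) and Slc16a3 (8.29 ± 0.631). In MitolΔ/Δ HSCs Slc16a1 stood at 145 ± 43.0 per kilobase, level with Pdha1 (143 ± 19.98) and below Slc2a3 (189 ± 26.01), and Pdk2 at 32.8 ± 4.44. With the longest transcript as the length instead, Pdk1 moved from the fourth to the second place in control HSCs (199 per kilobase), so the order of close neighbours rests on the gene model. So does the standing of Slc16a1 against Pdha1 in MitolΔ/Δ HSCs, at 161 and 199 per kilobase with that length.

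**Figure D4:**
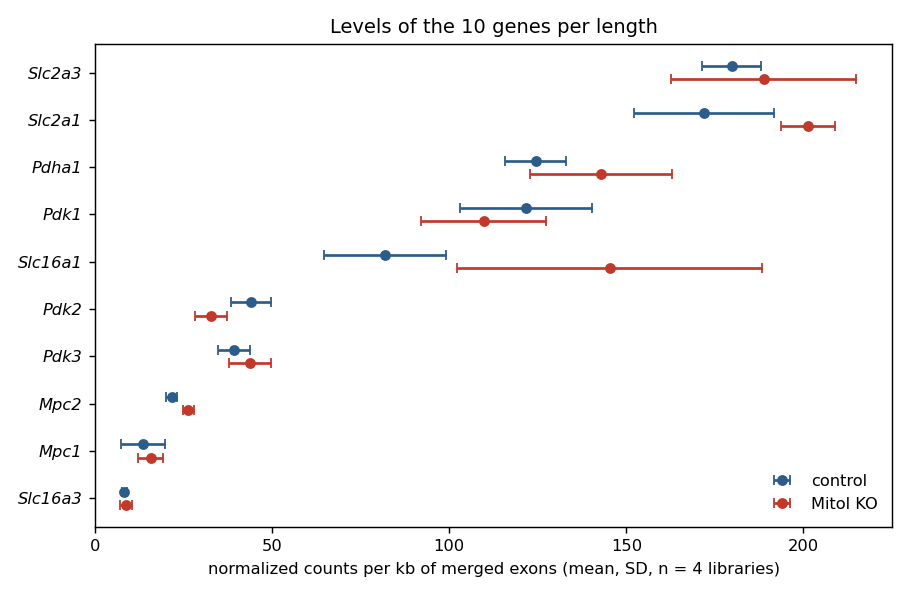
Normalized counts per kilobase of merged exons (x axis, linear, from 0) of the 10 genes (y axis) in MitolΔ/Δ and control HSCs, in order of the control mean, with points for the mean of 4 libraries and bars for the SD. Slc16a1 moves from 81.9 in control to 145 in MitolΔ/Δ HSCs, and Slc16a3 is at 8.29 and 8.74.

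Downstream of glucose entry, the enzymes that make and use pyruvate and lactate included 3 genes that rose, Ldha, Pkm and Me2, and 0 that fell among 9 tested, with a median log2 fold change of 0.47. Ldha, which encodes the lactate dehydrogenase subunit that favours lactate formation, had 6930, 6991, 6168 and 5592 normalized counts in MitolΔ/Δ and 3590, 3379, 3379 and 2858 in control libraries (log2 fold change 0.94, standard error 0.097, edgeR adjusted p = 0.00134). Its partner Ldhb was at 528 ± 64.4 and 544 ± 46.9 (log2 fold change -0.06, adjusted p = 0.782). Pkm, the pyruvate kinase, was at 5452 ± 711 and 3888 ± 328 (0.47, adjusted p = 0.0195). Me2, a mitochondrial malic enzyme that forms pyruvate, was at 640 ± 178 and 342 ± 6.76 (0.88, adjusted p = 0.0139). The calls of Ldha and Me2 held whichever library was left out, and that of Pkm was lost without MitolΔ/Δ library 1 or 2 or control library 2 or 4 (adjusted p = 0.0534, 0.0573, 0.0608 and 0.0542).

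**Figure D5:**
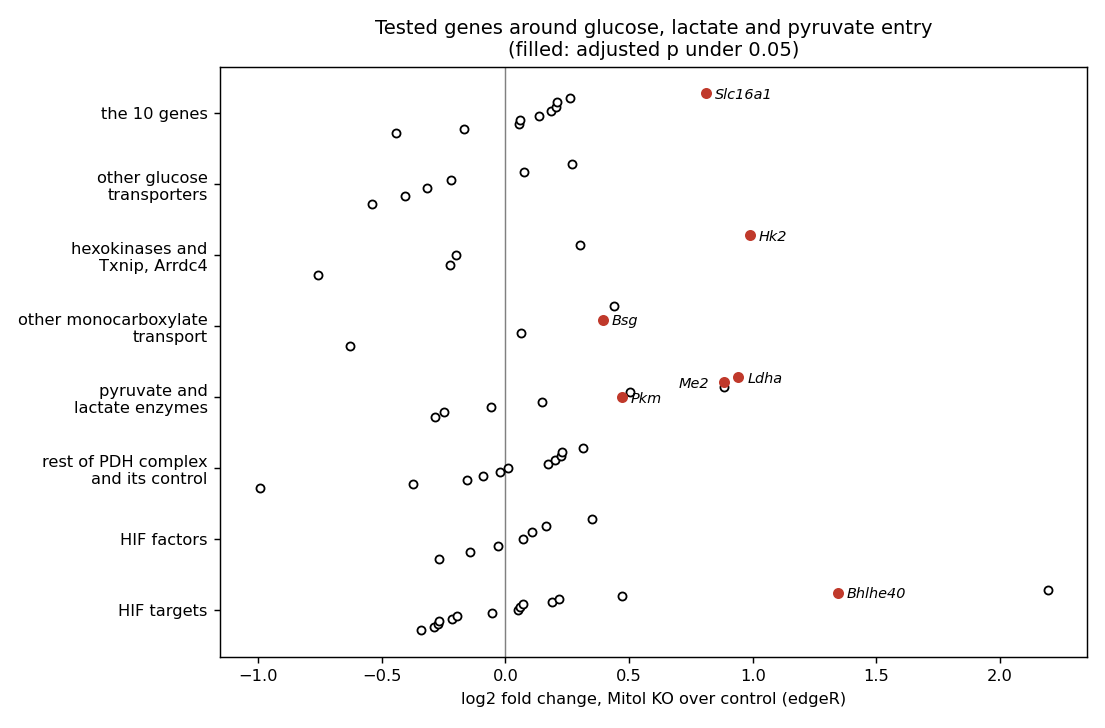
Log2 fold change of MitolΔ/Δ over control HSCs (x axis, edgeR) of the tested genes in 8 lists (y axis), with filled points for an adjusted p under 0.05 and vertical offsets within a list for legibility only. Slc16a1, Hk2, Bsg, Ldha, Pkm, Me2 and Bhlhe40 are filled, all above 0, and 0 genes of the pyruvate dehydrogenase and HIF factor lists are.

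HIF and its regulators and targets were examined because Slc2a1, Slc2a3, Slc16a3 and Pdk1 are known HIF targets. Of 7 genes for HIF subunits and their regulators, 0 passed in edgeR, DESeq2 or limma-voom (1 higher and 1 lower at an unadjusted p under 0.05). Hif1a was at 327 ± 57.8 and 289 ± 38.9 (edgeR adjusted p = 0.520). Hk2, Ldha and Pkm, which rose, are known HIF targets as well. Of 15 other HIF targets tested, 1 rose and 0 fell in edgeR, with a median log2 fold change of 0.05. At an unadjusted p under 0.05 in edgeR, 2 were higher and 2 lower. A second was called higher by limma-voom, the low-count gene P4ha2 (16.7 ± 5.21 against 3.71 ± 4.63, adjusted p = 0.0419 in limma-voom and 0.106 in edgeR). The one called by edgeR was Bhlhe40, a transcriptional repressor with many inducers, at 435 ± 192 and 170.0 ± 52.9 (log2 fold change 1.34, edgeR adjusted p = 0.0270), and its call was lost without MitolΔ/Δ library 3 (adjusted p = 0.0686) or control library 2 or 4 (0.0688 and 0.0687).

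Cell-cycle genes moved with the groups. Of 8 tested, 7 rose (Mki67, Top2a, Ccnb1, Ccna2, Cdk1, Rrm2 and Mcm5) and 0 fell, with a median log2 fold change of 1.16 and values from 0.93 for Mcm5 to 2.18 for Rrm2 among those that rose. Ccna2 and Rrm2 kept their calls whichever library was left out, and the other 5 were past the threshold in 2 to 5 of the 8 fits and missed it without control library 2 (adjusted p = 0.0664 to 0.104). The summed normalized counts of the 8 were 17496, 17283, 12384 and 8090 in MitolΔ/Δ libraries 1 to 4 and 5891, 5589, 7833 and 5446 in control libraries 1 to 4. MitolΔ/Δ library 4 was the lowest of its group in this sum and also in Slc16a1. Other libraries did not match in this way. Control library 3 was the highest of its group in the sum and the lowest in Slc16a1 (332). In MitolΔ/Δ the highest value was in library 1 for the sum and in library 2 for Slc16a1 (1052). The part of the cell-cycle genes in the change of Slc16a1 was not tested. Without the library rich in red-cell genes, MitolΔ/Δ library 3, the log2 fold change of Slc16a1 was 0.85 and its adjusted p 0.0655. Of the red-cell genes 3 of 7 were tested and Hbb-bt was the one past the threshold in edgeR, with 0 in DESeq2 (3 of the 8 fits with a library left out). Among 4 megakaryocyte genes in the table Pf4 was, and it was lower, in 5 of those 8 fits (sum of the 4 genes 375 to 1643 in MitolΔ/Δ and 716 to 806 in control libraries). Of the neutrophil, macrophage, B-cell and T-cell markers, 1 of 6, 5 of 6, 1 of 4 and 1 of 2 genes in the table were tested, and 0 were past the threshold in edgeR, with sums of 15.9 to 31.2, 327 to 425, 136 to 150.3 and 20.1 to 36.0 in MitolΔ/Δ libraries and 40.9 to 81.7, 159 to 289, 145 to 204 and 35.0 to 54.3 in control libraries. In DESeq2 the macrophage gene Vcam1 was higher (68.5 ± 37.5 against 22.6 ± 11.7, adjusted p = 0.0116) and the neutrophil gene S100a8, too low for the filter in edgeR, was lower (adjusted p = 0.0284). S100a9 had 0 counts in every MitolΔ/Δ library and 13.97 ± 8.83 normalized counts in controls. None of 5 mast-cell and basophil markers was in the table.

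After the group means were removed, the genes whose values followed Slc16a1 most closely over the 8 libraries were Plcb1 (Pearson r = 0.98) and Slfn3 (r = 0.98), out of 12012 genes compared. The points share library, depth and processing, and the 2 genes were picked for this likeness. Plcb1, a phospholipase C gene, had a log2 fold change of -0.49 (edgeR adjusted p = 0.425) and Slfn3, a Schlafen gene, one of 0.66 (adjusted p = 0.121).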

How the data were processed

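Per the labels and the methods, libraries were prepared with not-so-random primers and a Nextera XT kit, reads were aligned to mm39 with STAR, and the authors deposited counts of reads per gene from subread without normalization. The annotation and strand setting are not given in the sources used here. On GRCm39, opposite-strand coding genes overlap Slc16a3, Mpc2, Pdha1, Pdk2 and Pdk3, and without strand their reads could not be told apart. Rows with no gene name (1029, 0.335 to 0.467% of a library's counts) were left out.

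Counts were tested with the quasi-likelihood test of edgeR 4.0.16 (R 4.3.3, TMM, default expression filter, group as the sole term, Benjamini-Hochberg adjustment over 16444 genes, threshold 0.05). Standard errors and intervals are on its log2 scale. Normalized counts are counts divided by DESeq2 1.42.0 size factors and are given as mean ± SD of 4 libraries. Single values were taken as log2 of normalized counts with 0.5 added, and ratios as log2 of the ratio of counts. Each was set against the 70 possible arrangements of the labels (exact permutation test, 2-sided). The numbers of the libraries did not pair them, since same-numbered libraries correlated at -0.11 to 0.09 after group means were removed. No 2 libraries of a group agreed within sampling noise. Alternatives were other normalizations, filters, thresholds, DESeq2, limma-voom (limma 3.58.1), a replicate block and each library left out. The fits were tested on simulated counts.

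The genes and lists were chosen with earlier results of these data known. Named were Marchf5, the 10 genes, list genes past the threshold, 10 fixed pathway genes and the 2 genes most like each gene that passed. Emb, Slc2a9, P4ha2, Slamf1, Ly6a, Procr, Mecom, Fgd5, Vcam1, S100a8 and S100a9 were named after their values were seen. Positions and exon lengths are from GENCODE vM39. Protein sequences were not analysed here, and 1 marker gene is not reported here. The reads carry no molecular identifiers, so counts are not counts of molecules.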

Additional observations from a re-analysis of the deposited data

How the results depend on the processing

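Depth and the number of libraries limit precision. Mpc1 and Slc16a3 had under 130 normalized counts in every library, and the 95% intervals of 8 of the 10 genes include 0. Genes past the threshold numbered 1386 (770 higher and 616 lower), 2315 in DESeq2, 2585 at a threshold of 0.1 and 166 at 0.01, and from 359 (without control library 2) to 2501 (without MitolΔ/Δ library 4) with a library left out. Upper quartile normalization turned the split to 594 higher and 845 lower. Of the 10 genes, 2 passed, 1 higher and 1 lower, under upper quartile normalization, a filter of at least 50 mean counts, DESeq2 and a threshold of 0.1, 0 passed at 0.01, and from 0 to 2 with a library left out (0 to 1 higher, 0 to 1 lower). The second was Pdk2, at -0.50, -0.47 and -0.42 under the first 3 (adjusted p = 0.0452, 0.0478 and 0.0440), and from -0.50 to -0.36 with a library left out. Slc16a1 ran from 0.63 to 0.99 and passed in 2 of those 8 fits. Other genes of the pathway and cell-cycle lists past the threshold, cell type markers not counted, were 13 higher (5 to 14 with a library left out) and 0 lower, against 1 lower, Txnip, under upper quartile normalization, the 50-count filter, DESeq2 and limma-voom and 0 to 1 with a library left out. Signs turned for Slc2a3 under upper quartile normalization (-0.0062), for Slc16a3 without MitolΔ/Δ library 3 (-0.060, up to 0.15 without another), for Pdp1 without MitolΔ/Δ library 4 (0.0034) or control library 4 (0.0039, range -0.17 to 0.0039), for Ldhb without control library 1 (range -0.13 to 0.0047), and for the ratio of Mpc1 to Mpc2 (-0.22 to 0.26). The cause of these changes was not tested.

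With the replicate number as a block, 1652 genes passed, 2 of the 10 genes did (1 higher, 1 lower; Pdk2 at -0.44, adjusted p = 0.0427), and 1 other list gene was lower. The numbers did not pair the samples, and in 2 of 4 numbers the same-numbered library was the best partner.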
